A study of Mus musculus with 6 samples.

Results

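The transcriptome described here is that of the control arm of a knockdown experiment in mouse embryonic fibroblasts that were being pushed towards a cardiac fate. Its members are the 2 libraries labelled siControl, of 6 in the series, chosen by their labels. The other 4 libraries, 2 with an siRNA against Junb (siJunb) and 2 with an siRNA against H1f0 (siH1f0), were not used here, and no comparison with them was made. All libraries came from 1 cell line, iMGT-Myh6-eGFP-MEF, in which doxycycline turns on Mef2c, Gata4 and Tbx5 together (MGT) and which bears an eGFP reporter that takes its name from Myh6. The siControl cells were transfected with a control siRNA on day -1 and received doxycycline at 1 ug/mL from day 0. Their labels place the harvest on day 1, while the series description speaks of day 3 and of sorted GFP-positive cells, and the files do not settle which applies. The replicates are called biological. Whether the line is a clone, and which promoter drives each factor, is not given in the sources used here. No library of cells without doxycycline is in the series, so a level below does not tell whether a gene came on with induction or was already on in the line.

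Fibroblasts are connective tissue cells that secrete and remodel the extracellular matrix, and their identity rests on mesenchymal transcription factors such as those of the Twist and Prrx families. Mef2c, Gata4 and Tbx5 are transcription factors of the developing heart, which together can activate sarcomere and calcium handling genes in fibroblasts. A gene of another lineage is usually kept silent in a fibroblast by closed chromatin, so levels across lineages outline the starting state from which reprogramming proceeds.

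Read counts were divided by the gene length in the deposited table and scaled to the same sum in each library, which gives TPM, the share of transcripts that a gene holds and a scale on which different genes can be compared. The libraries held 85979630 and 65998575 counts, with a median of 3424 and 2626 counts per expressed gene, so expressed genes were limited by the spread between libraries rather than by depth. Pairs of values below are siControl 1 and then siControl 2. The libraries differed by more than the noise of counting (a chi-square of 74.7 for each degree of freedom), while log2 TPM correlated across 9262 genes with a Pearson r of 0.992. That value is across genes, which are not replicates. With 1 condition and 2 libraries there is no test between groups, and every statement is a description with the spread of the libraries beside it. In cells measured in bulk, fewer cells expressing a gene and less RNA per cell cannot be told apart.

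Of 24516 genes in the table, 11825 reached 1 TPM in both libraries, which is 48.2% and is the background for the counts of list members below. Another 7831 genes had 0 counts in both libraries. Output was spread over many genes. The 10 highest genes held 4.72% and 3.96% of all TPM, the 100 highest held 18.1% and 16.8%, and 905 and 995 genes made up 50% of the TPM. Only 90 genes had a mean of 1000 TPM or more, and 2308 lay between 100 and 1000 TPM. Genes of 1 to 10 TPM numbered 2727 and held 1.17% and 1.22% of the TPM.

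The top of the ranking combined protein synthesis, cytoskeleton, lysosome and secretion. Eef1a1, which delivers transfer RNAs to the ribosome, was first at 8732 and 8561 TPM. Among the 20 highest protein-coding genes outside the ribosomal proteins, Vim, the intermediate filament gene that marks mesenchymal cells, stood at 4072 and 3889.9 TPM and Actb, cytoplasmic beta-actin, at 3915 and 3649 TPM. B2m, the invariant chain of class I major histocompatibility molecules, was at 3783 and 3703 TPM, and Ftl1, the ferritin light chain, at 3557 and 3215 TPM. Eef1a1 stood clear of the rest of these 20 in both libraries, while the values of Vim, Actb and B2m overlapped between libraries, so their order is not firm. Outside the protein-coding genes Rn45s, the ribosomal RNA precursor, ranked 2 at 8413 and 2923 TPM, so it was close to Eef1a1 in siControl 1.

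Lysosomal products were also among the same 20 genes. Lamp1, a membrane glycoprotein of lysosomes, was at 3277 and 3179 TPM, and Psap, the precursor of the saposins, at 2619 and 2564 TPM. Secreted or matrix-related genes were Fn1, fibronectin, at 1935 and 2702 TPM, and Lgals1, a secreted galectin, at 2131 and 1890.0 TPM. Others of this kind were Pcolce, an enhancer of procollagen processing, at 1948 and 1837 TPM, and Cst3, the cathepsin inhibitor cystatin C, at 1948 and 1822 TPM. Fn1 had the widest gap between libraries among the 20. The rest were Tpt1, Eef2, Atp5b, Ppia, Ptma, Rack1, H3f3b, Slc25a4 and Eif1, with means from 1624 to 2851 TPM. Of 82 cytosolic ribosomal protein genes, 77 reached 1 TPM in both libraries, with a median of 856 TPM, and together they held 8.56% and 7.83% of the TPM.

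**Figure D1:**
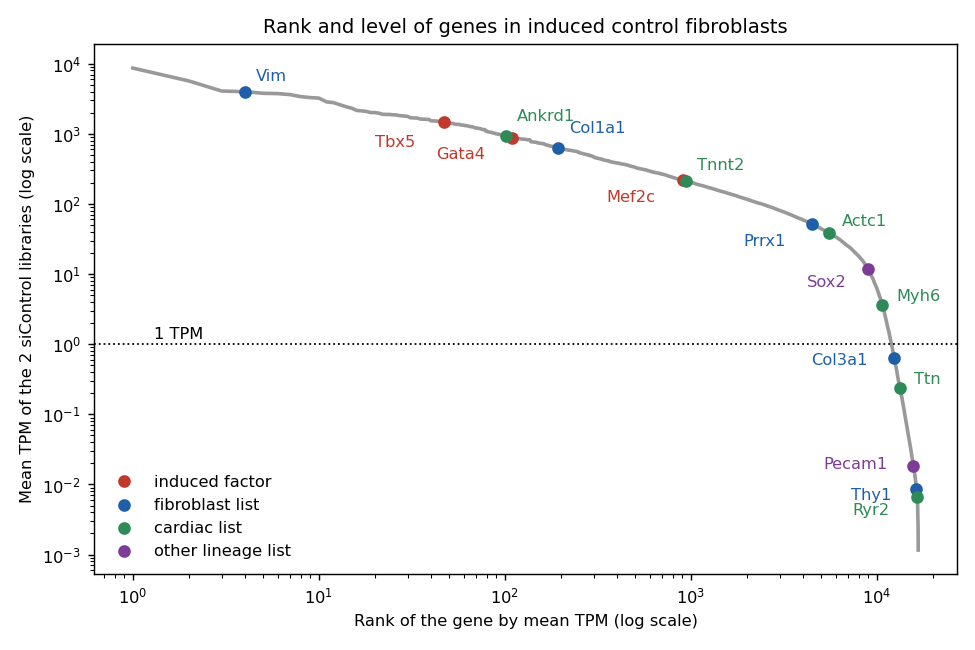
Mean TPM of the 2 siControl libraries against the rank of each gene, both on log scales, for genes with a count in either library; coloured points are named members of the induced, fibroblast, cardiac and other lineage lists and the dotted line is 1 TPM. Tbx5 at rank 47 and Gata4 at rank 109 sit among the most abundant transcripts, Myh6 is at rank 10705, and Thy1 and Ryr2 lie at the foot of the curve.

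Promoters of expressed and silent genes differed in CpG content, a sequence property that the choice of libraries did not use. CpG dinucleotides are depleted in most of the mammalian genome but kept in CpG islands, which cover the promoters of many broadly expressed genes. RefSeq promoter windows (GRCm38.p6, 250 bases before to 50 after the gene start, the first listed window per gene) were matched to 17545 genes. The median ratio of observed to expected CpG was 0.202 in 5208 genes with 0 counts, 0.360 in genes under 1 TPM, 0.651 from 1 to 10 TPM, 0.797 from 10 to 100 TPM and 0.837 from 100 to 1000 TPM. The 67 matched genes of 1000 TPM or more had a median of 0.823, so the increase ended at about 100 TPM. The classes overlapped widely, as the quartiles from 0.189 to 0.649 under 1 TPM and from 0.645 to 0.926 at 10 to 100 TPM show. The lowest class holds most of the 930 matched olfactory receptor genes, a family with a median ratio of 0.106.

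With their members pooled, the fibroblast, cardiac and other lineage lists stood below expressed genes in general. Their median ratios were 0.467 (56 promoters), 0.344 (73 promoters) and 0.316 (146 promoters). Single lists could stand higher, with 0.714 in cardiac transcription factors (15 promoters) and 0.825 in neuronal markers (14 promoters). Fibroblast list members at 1 TPM or more had a median ratio of 0.509 (45 promoters) and those under 1 TPM 0.378 (11 promoters). Cardiac list members at 1 TPM or more had 0.362 (44 promoters) against 0.320 in those under 1 TPM (29 promoters). The 6 windows below are printed because they show high and low levels at both ends of CpG content. They were chosen after their values were seen, from genes whose upstream bases hold no GENCODE M21 exon. Each gives the 250 bases before the start, 5′ to 3′, from RefSeq GRCm38.p6, with CpG dinucleotides in capitals. The first 3 are rich in CpG and belong to Eef2, the translation elongation factor (chr10:81176381-81176630, plus strand, 2778 TPM), Col5a1, a fibrillar collagen chain (chr2:27886175-27886424, plus strand, 60.8 TPM), and Tbx20, a cardiac T-box factor (chr9:24774304-24774553, minus strand, 0 counts).
Eef2: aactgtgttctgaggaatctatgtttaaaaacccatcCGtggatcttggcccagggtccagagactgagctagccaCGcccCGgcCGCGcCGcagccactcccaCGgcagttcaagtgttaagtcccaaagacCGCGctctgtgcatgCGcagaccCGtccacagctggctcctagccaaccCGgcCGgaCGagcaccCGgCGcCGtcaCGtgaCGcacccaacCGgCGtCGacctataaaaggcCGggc
Col5a1: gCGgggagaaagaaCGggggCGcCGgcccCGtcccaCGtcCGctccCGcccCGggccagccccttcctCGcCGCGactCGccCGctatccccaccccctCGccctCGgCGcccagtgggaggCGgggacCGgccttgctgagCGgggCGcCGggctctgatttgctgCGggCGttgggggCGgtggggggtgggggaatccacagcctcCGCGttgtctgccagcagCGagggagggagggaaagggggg
Tbx20: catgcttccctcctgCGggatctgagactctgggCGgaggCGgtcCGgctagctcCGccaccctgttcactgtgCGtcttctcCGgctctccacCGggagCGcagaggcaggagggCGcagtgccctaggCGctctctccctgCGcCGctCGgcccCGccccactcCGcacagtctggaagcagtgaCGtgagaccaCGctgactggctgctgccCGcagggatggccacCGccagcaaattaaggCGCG
The other 3 are poor in CpG and belong to Tnnc1, the slow and cardiac troponin C (chr14:31208062-31208311, plus strand, 256 TPM), Col3a1, a fibrillar collagen chain (chr1:45311288-45311537, plus strand, 0.644 TPM), and Myl2, the ventricular myosin light chain (chr5:122092474-122092723, plus strand, 0.0976 TPM).
Tnnc1: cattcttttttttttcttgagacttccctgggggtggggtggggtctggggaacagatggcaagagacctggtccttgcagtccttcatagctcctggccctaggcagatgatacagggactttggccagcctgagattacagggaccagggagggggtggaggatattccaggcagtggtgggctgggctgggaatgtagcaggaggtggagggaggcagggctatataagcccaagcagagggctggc
Col3a1: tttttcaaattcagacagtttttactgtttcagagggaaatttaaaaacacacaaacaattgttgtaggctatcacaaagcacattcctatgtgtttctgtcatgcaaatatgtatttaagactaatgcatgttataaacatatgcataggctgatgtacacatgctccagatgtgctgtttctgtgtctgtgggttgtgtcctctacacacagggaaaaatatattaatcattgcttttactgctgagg
Myl2: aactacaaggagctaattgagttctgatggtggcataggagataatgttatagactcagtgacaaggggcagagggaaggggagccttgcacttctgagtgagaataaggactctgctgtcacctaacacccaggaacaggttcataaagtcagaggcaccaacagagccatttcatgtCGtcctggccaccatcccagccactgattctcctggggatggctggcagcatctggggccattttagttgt
The Eef2, Col5a1 and Tbx20 stretches hold 23, 28 and 22 CpG dinucleotides, and those of Tnnc1, Col3a1 and Myl2 hold 0, 0 and 1.

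**Figure D2:**
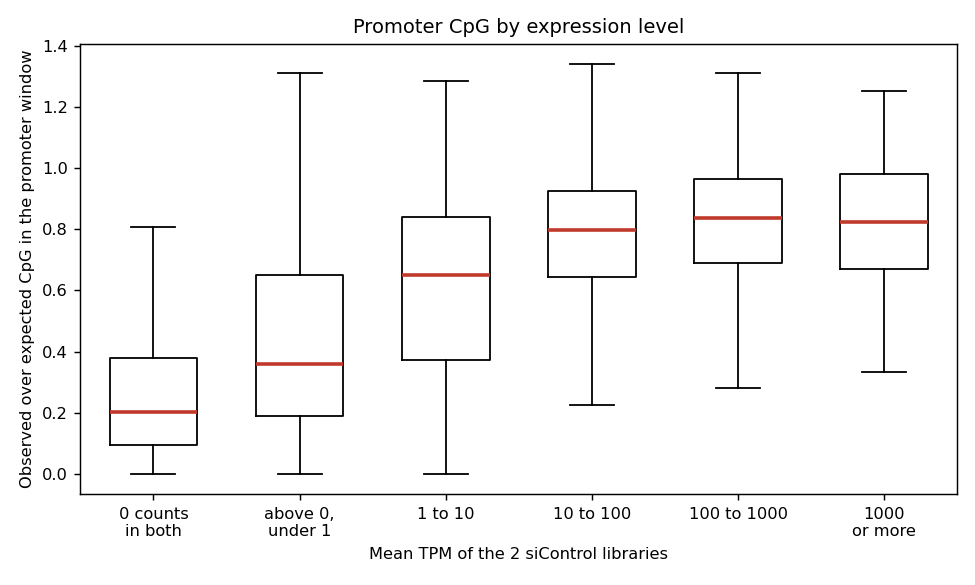
Ratio of observed to expected CpG in the RefSeq promoter window (y axis) for genes grouped by mean TPM (x axis); boxes span the quartiles with the median in red, and whiskers reach the last value within 1.5 box lengths. The median climbs from 0.202 at 0 counts to 0.837 at 100 to 1000 TPM.

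Short motifs were counted in the same windows of all matched genes, on both strands. The letters TATAAA, the core of a TATA box, were present in 24.0% of promoters with 0 counts, 5.58% at 10 to 100 TPM and 16.4% at 1000 TPM or more, against 12.9% of all. The windows also differed in base composition, with a median of 47% G and C at 0 counts and 61.7% at 10 to 100 TPM. In the 930 olfactory receptor windows it was 35%, and 41.2% of them held TATAAA. The part of base composition and of this family in the motif shares was not tested. The AP-1 letters TGANTCA were in 7.40% of all promoters and in 2 of 56 fibroblast list promoters. The GATA letters AGATAA were in 9.87% of all promoters and 24.7% of 73 cardiac list promoters, but that share was 20.5% in the cardiac genes at 1 TPM and 31.0% in those below it. The CArG box, bound by serum response factor, was in 1.53% of all promoters and in 7 of the 73 cardiac ones. Of these, 6 were among the 44 cardiac genes at 1 TPM, such as Actc1, Myl7 and Srf. The remaining 1, among the 29 below it, was Myl3, which had 0 counts. The T-box letters AGGTGTGA were in 1.19% of all promoters and in 2 cardiac ones, those of Tnni3 and Nppa. A CArG box can contain TATAAA, so these 2 counts overlap. A match is a description of these letters in this window and not evidence of binding.

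The induced factors were among the most abundant transcripts. Tbx5 (chromosome 5, 119796514 to 119885220 in GRCm38) was at 1233 and 1758 TPM, a mean of 1495 ± 371 TPM (SD, n = 2) and rank 47. Gata4 (chromosome 14, 63198914 to 63271712) was at 648 and 1123 TPM, a mean of 885 ± 336 TPM (SD, n = 2) and rank 109. Mef2c (chromosome 13, 83504017 to 83667079) was at 141 and 293 TPM, a mean of 217 ± 108 TPM (SD, n = 2) and rank 904. Tbx5 was thus the highest and Mef2c the lowest of the 3 in each library, with no overlap between the factors on the TPM scale. Whether the 3 factors are made from a shared transcript is not given in the sources used here. The part of uneven read coverage along such a transcript in this order was not tested. These levels are therefore not a measure of the dose of each factor. Tbx5 was 8.75 and 6.00 times the TPM of Mef2c, and Gata4 4.60 and 3.83 times.

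That order held, with smaller gaps, when the coding length replaced the length of the full gene model. An introduced copy may lack the untranslated regions, and counts from it and from the cell's own gene cannot be told apart. With the longest GENCODE M21 coding sequence as the length, Tbx5 was at 3127 and 4458 TPM, Gata4 at 1664 and 2886 TPM, and Mef2c at 637 and 1325 TPM. Tbx5 was then 4.91 and 3.36 times Mef2c, and Gata4 2.61 and 2.18 times. On the gene-model length the 3 factors summed to 2022 and 3174 TPM, or 0.202% and 0.317% of the transcripts.

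Fibroblast genes were broadly expressed, with gaps at several well-known markers. Of 87 members of the 4 fibroblast lists, 68 (78.2%) reached 1 TPM in both libraries and 23 reached 100 TPM, against 2296 of all 24516 genes at 100 TPM. Their median was 23.0 TPM against 0.748 TPM over all genes and 3.89 TPM over the 19832 genes with a RefSeq protein, of which 54.5% reached 1 TPM. The members made up 1.90% and 2.00% of the TPM.

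Of the fibroblast transcription factors 17 of 20 reached 1 TPM, with a median of 21.5 TPM. Twist1, a basic helix-loop-helix factor of mesenchyme, was highest at 82.2 and 78.7 TPM, followed by Zeb2, a repressor of epithelial genes, at 53.6 and 70.7 TPM. Prrx1, a homeobox factor of limb and connective tissue mesenchyme, was at 48.3 and 55.4 TPM, and Twist2, the relative of Twist1, at 43.7 and 37.5 TPM. The mesodermal homeobox genes Meox1 and Meox2 had 0 counts in both libraries. Tcf21, a factor of cardiac and visceral fibroblasts, had 1 and 0 counts. Factors of narrower lineages were also on, among them Osr1, a factor of intermediate and limb mesoderm, at 23.2 and 26.9 TPM, Tbx18, a factor of epicardium and somites, at 24.0 and 25.4 TPM, and Runx2, the factor of bone formation, at 9.06 and 10.9 TPM.

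Among surface and cytoskeletal genes 14 of 18 reached 1 TPM. After Vim came Itgb1, the integrin beta chain that pairs with most matrix-binding alpha chains, at 1013 and 1100.0 TPM, and Itga5, its partner for fibronectin, at 229 and 242 TPM. The platelet-derived growth factor receptors differed in level, with Pdgfrb at 50.7 and 54.0 TPM and Pdgfra at 14.7 and 17.8 TPM. Thy1, a surface glycoprotein widely used to isolate mouse fibroblasts, had 1 and 0 counts, or 0.0173 and 0 TPM. Cd34, a marker of many tissue-resident fibroblasts, had 7 and 0 counts.

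Collagen output was selective. Of 18 chains, 12 reached 1 TPM, led by Col1a1 (chromosome 11, 94936224 to 94953042), the major chain of type I collagen, at 615 and 643 TPM. Col5a2, a chain that regulates fibril diameter, was close to it at 542 and 615 TPM, and Col1a2, the partner chain of type I collagen, was at 272 and 289 TPM. The basement membrane chains Col4a2 and Col4a1 were at 303 and 343 TPM and at 218 and 255 TPM. Col3a1 (chromosome 1, 45311538 to 45349706), the chain of type III collagen that accompanies type I in most soft connective tissue, was at 0.578 and 0.710 TPM, with 107 and 96 counts behind those values. It therefore lay below the 1 TPM line in both libraries, at rank 12403, while Col5a2, its neighbour on the chromosome (chromosome 1, 45374331 to 45503282), was at rank 227. Col6a3, the large chain of collagen VI, was at 0.258 and 0.296 TPM, while Col6a1, a partner chain, was at 55.9 and 60.4 TPM.

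The glycoproteins and modifiers of the matrix had the highest median of the 4 fibroblast lists, with 25 of 31 at 1 TPM or more and a median of 61.4 TPM. Fn1 and Lgals1 led, followed by Serpinh1, the collagen chaperone, at 1316 and 1335 TPM and Sparc, a collagen-binding matricellular protein, at 1173 and 1190.4 TPM. Timp2, a metalloproteinase inhibitor, was at 631 and 665 TPM. At the other end Eln, elastin, and Lum, the proteoglycan lumican, had 0 counts in both libraries, where 3 counts would have given 0.0234 and 0.0321 TPM and 0.0435 and 0.0595 TPM respectively. Postn, periostin, a marker of activated fibroblasts, was at 0.338 and 0.175 TPM, and Dcn, decorin, at 6.47 and 5.50 TPM. The matrix program thus held high fibronectin, Col5a2 and chains of type I and type IV collagen. Col5a1, another chain of type V collagen, was lower at 57.8 and 63.8 TPM. Elastin, lumican, periostin and type III collagen were at little or none.

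Contractile genes shared by fibroblasts and smooth muscle split in the same way. The nonmuscle set was high, with Myl12a, a regulatory light chain, at 1359.8 and 1303 TPM, Tpm4, a tropomyosin of stress fibres, at 1203 and 1234 TPM, and Myl6, an essential light chain, at 1157 and 1029 TPM. Acta2, the smooth muscle actin that marks myofibroblasts, was at 64.2 and 61.2 TPM and Tagln, transgelin, at 5.74 and 5.40 TPM. The defining genes of mature smooth muscle were near 0, with Cnn1 at 0.182 and 0.249 TPM and Myh11 at 0.0227 and 0.112 TPM.

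Set against the label, 8 of 10 defining fibroblast markers reached 1 TPM in both libraries, and the exceptions were Thy1 and Col3a1. The summed level of the 10 was 5199.6 and 5066 TPM. The label fibroblast thus fits most of its markers, with a standard surface marker at 1 and 0 counts.

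Cardiac genes were expressed in part. Of 97 members of 5 cardiac lists, 57 (58.8%) reached 1 TPM in both libraries, against 48.2% of all genes, and 10 had 0 counts in both. The median was 3.73 TPM, so that share and median were close to those of genes with a RefSeq protein (54.5% and 3.89 TPM). The members summed to 0.590% and 0.590% of the TPM. Several members are broadly expressed outside the heart, among them Tpm1, Tead1, Srf, Mef2a, Mef2d, Hadha, Acadm and Atp2a2. Their level is not specific to heart muscle. Of 9 defining cardiomyocyte markers, 5 (Myh6, Myh7, Actc1, Tnnt2 and Tnni3) reached 1 TPM in both libraries, and Ttn, Ryr2, Nppa and Nkx2-5 did not.

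Several factors that specify heart muscle were silent in cells with abundant Mef2c, Gata4 and Tbx5. Of 22 members, 10 reached 1 TPM in both libraries, or 45.5%, which is near the share of all genes. Nkx2-5, Tbx20, Hand1, Hand2, Isl1, Gata5 and Irx4, which act from the first specification of heart muscle to its chamber identity, each had 0 counts in both libraries. For Nkx2-5 (chromosome 17, 26838664 to 26844988) 3 counts would have corresponded to 0.0592 and 0.0811 TPM, and for Tbx20 (chromosome 9, 24720812 to 24774303) to 0.0131 and 0.0179 TPM. These are the levels that a count of 0 allows if counts are independent, which was not tested. Myocd, the coactivator of serum response factor in heart and smooth muscle, had 6 and 0 counts.

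The expressed members were led by factors found in many cell types. Tead1, the DNA-binding partner of YAP, was at 98.2 and 119 TPM, Mef2a, a relative of Mef2c, at 57.5 and 67.9 TPM, and Srf at 52.4 and 52.5 TPM. Mef2d was at 47.8 and 53.0 TPM. Tbx3, a T-box factor of the conduction system and limb, was at 21.9 and 22.8 TPM and Gata6, a relative of Gata4, at 20.3 and 22.4 TPM. Each of Mef2a and Mef2d thus lay below Mef2c in TPM, and Gata6 far below Gata4, in both libraries.

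Sarcomere genes ranged from 0 counts to over 1000 TPM. Of 33 thick filament, thin filament and Z-disc genes, 23 reached 1 TPM in both libraries, 8 reached 100 TPM, and 1, Myl3, had 0 counts. The thin filament and Z-disc list had a median of 23.2 TPM and the thick filament list 1.32 TPM.

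On the thin filament the regulatory complex was mostly present. Tnnc1, which binds calcium, was at 278 and 234 TPM, Tnnt2, cardiac troponin T, at 219.9 and 204 TPM, and Tnni3, the inhibitory subunit of adult heart, at 16.2 and 18.5 TPM. Tnni1, the inhibitory subunit of slow and embryonic muscle, was at 1.11 and 0.517 TPM. The troponin subunits, which act in equal numbers in muscle, were thus unequal in TPM. Actc1 (chromosome 2, 114047282 to 114052875), the cardiac actin, was at 39.8 and 36.5 TPM, far below Actb. Tpm1, a tropomyosin also made by nonmuscle cells, was at 1432 and 1402 TPM, and Ankrd1, a stretch-responsive protein of the titin filament and a target of YAP, at 945 and 934 TPM.

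The thick filament list ran from 0 counts to 189 TPM. Myom2, an M-band protein of mature muscle, was at 187 and 192 TPM, and Myl4, the atrial and embryonic essential light chain, at 189 and 169 TPM. Myl7, the atrial regulatory light chain, was at 71.9 and 62.3 TPM. Against these, the ventricular light chains Myl2 and Myl3 had 0 and 3 counts and 0 and 0 counts. Of these 4 light chains, the atrial and embryonic ones were thus high and the ventricular ones at or near 0 in both libraries.

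The heavy chains were low. Myh6 (chromosome 14, 54941921 to 54968017), the gene for which the reporter is named, was at 3.87 and 3.39 TPM, with 783 and 501 counts, and ranked 10705 of all genes. Myh7 (chromosome 14, 54970684 to 54994626), its neighbour and the slow and fetal heavy chain, was at 1.61 and 1.04 TPM. Ttn, titin, whose model of 104320 bases makes its TPM low for its counts (668 and 735 counts), was at 0.193 and 0.290 TPM. Actn2, the sarcomeric alpha-actinin of the Z-disc, had 0 and 2 counts, and Nebl, nebulette, 2 and 0 counts. Myl4, Myl7, Tnnc1, Tnnt2, Tnni3 and Myom2 were therefore each above 10 TPM in both libraries, where Myh6, Myh7, Ttn and Actn2 were below it.

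**Figure D3:**
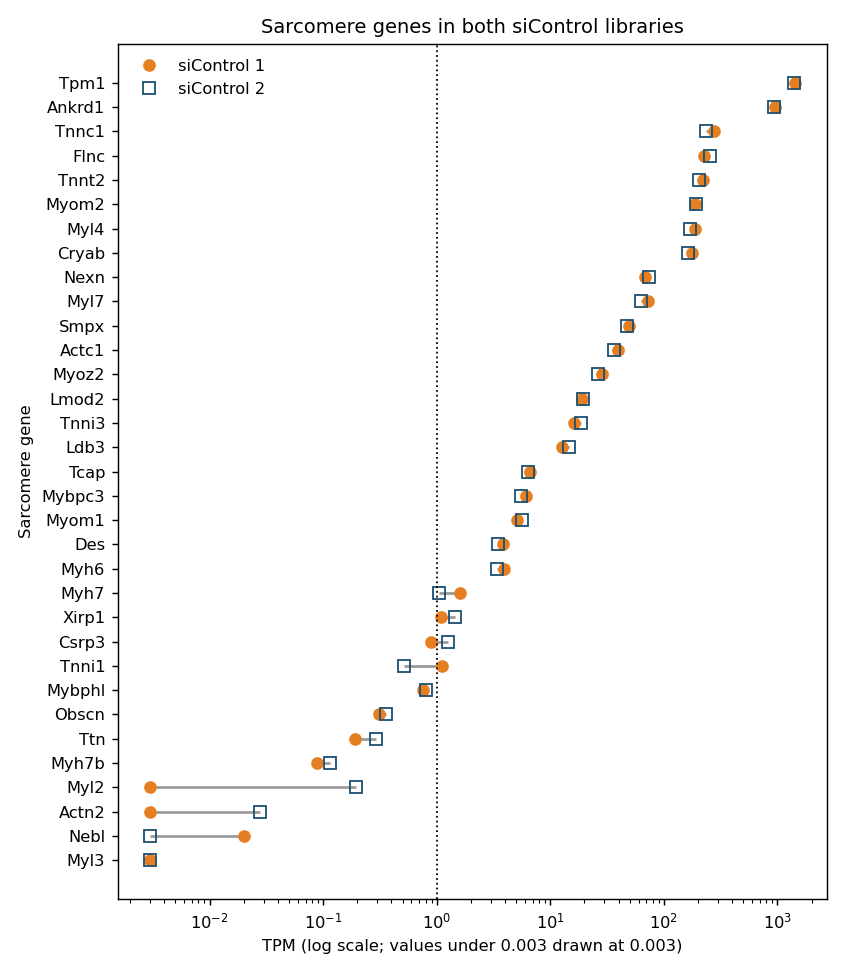
TPM of 33 sarcomere genes (rows, ordered by mean) on a log axis, with siControl 1 as filled circles, siControl 2 as open squares and a line joining them; values under 0.003 are drawn at 0.003 and the dotted line is 1 TPM. The libraries lie close together above 10 TPM, and Myl3, Nebl, Actn2 and Myl2 sit at the foot.

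Calcium handling, conduction and hormone genes were mixed, with 13 of 24 at 1 TPM or more and a median of 2.55 TPM. Atp2a2, the calcium pump of the sarcoplasmic and endoplasmic reticulum, led at 444 and 514 TPM, followed by Gja1, the main ventricular connexin and also a fibroblast gap junction protein, at 83.0 and 94.1 TPM, and Gjc1, another connexin, at 65.2 and 66.2 TPM. Casq2, the cardiac calsequestrin that stores calcium in the reticulum, was at 54.5 and 55.9 TPM. Ryr2, the release channel that works with it, had 2 and 4 counts over 16813 bases, or 0.00358 and 0.00980 TPM. The pump and the calcium-storing protein were thus expressed, with the release channel close to the level of 3 counts.

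Other membrane genes of heart muscle ranged from 0 counts to about 11 TPM. Jph2, a junctophilin that ties the reticulum to the surface membrane, was at 11.4 and 11.2 TPM, Kcnj2, an inward rectifier potassium channel, at 9.76 and 11.2 TPM, and Cacna1c, the pore of the L-type calcium channel, at 5.16 and 6.57 TPM. By contrast, Slc8a1, the sodium-calcium exchanger, had 4 and 2 counts, and Gja5, the atrial and conduction connexin, had 0 counts. The natriuretic peptide genes, which are fetal and stress genes of the heart, were low, with Nppb at 3.62 and 3.85 TPM and Nppa at 1.78 and 0.862 TPM. For Nppa the libraries fell on either side of 1 TPM.

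Genes of muscle energy metabolism also showed an uneven pattern, with 11 of 18 at 1 TPM or more. Cox6a2, the heart and muscle isoform of a cytochrome c oxidase subunit, was the highest at 237 and 204 TPM, above the general fatty acid oxidation genes Hadha at 182 and 185 TPM and Acadm at 161 and 164 TPM. Fabp3, the heart fatty acid-binding protein, was at 83.5 and 80.9 TPM, and Eno3, the muscle enolase, at 79.1 and 75.5 TPM. Cox8b, a muscle isoform of the same oxidase, had 0 counts, and Ckm, muscle creatine kinase, had 2 and 0 counts. Cox7a1, another muscle isoform of the oxidase, lay between Cox6a2 and Cox8b at 1.07 and 2.14 TPM, so the 3 isoforms were at unequal levels.

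Genes of other lineages were mostly at or near 0. Of 207 markers of 18 other lineages, 91 had 0 counts in both libraries and 89 more lay below 1 TPM in at least 1 library, while 27 (13.0%) reached 1 TPM in both, against 48.2% of all genes. Their median was 0.0108 TPM. Olfactory receptors, a large family confined to sensory neurons, show the level of stray counts. Of 1107 receptor genes, 1071 had 0 counts and 0 reached 1 TPM in both, with a highest mean of 0.717 TPM and a sum of 3.34 and 3.08 TPM.

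Defining markers of cells that could have been carried along were absent or near absent. Pecam1, Cdh5 and Kdr, which define endothelium, summed to 0 and 0.0577 TPM, and Ptprc, Adgre1 and Csf1r, which define macrophages, to 0.189 and 0.159 TPM. The defining erythroid (Hba-a1, Hbb-bs, Gata1) and epithelial (Epcam, Cdh1, Krt5) markers had 0 counts in both libraries. No epithelial list member reached 1 TPM, and Krt8 and Krt18, the keratins of simple epithelia, had 0 counts. Liver markers (13) and kidney markers (7) also had no member at 1 TPM.

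Skeletal muscle markers were low. The myogenic factors Myf5, Myog and Myf6 had 0 counts and Myod1 had 0 and 1 counts. Of 18 members 3 reached 1 TPM, namely Mylpf, a fast regulatory light chain, at 2.55 and 2.95 TPM, Tnnc2, fast troponin C, at 2.39 and 2.62 TPM, and Tnnt3, fast troponin T, at 2.71 and 1.62 TPM. Acta1, skeletal actin, was at 0.555 and 0.341 TPM, below the cardiac actin Actc1. These fast skeletal transcripts thus lay in the same range as the cardiac heavy chains.

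A few markers of other lineages stood well above the stray level. In the pluripotency list Klf4, a factor also active in fibroblasts, was at 66.1 and 72.5 TPM and Sox2, a stem cell and neural factor, at 10.8 and 12.6 TPM, while Pou5f1, Dppa3 and Zfp42 had 0 counts and Nanog had 0 and 1 counts. In the germ line list Sycp3, a component of the meiotic chromosome axis, was at 10.5 and 15.8 TPM and Sycp1 at 2.68 and 3.92 TPM, while Dazl and Stra8 had 0 counts. Msln, mesothelin, was at 14.2 and 14.8 TPM, Tubb3, a neuronal tubulin, at 15.3 and 15.0 TPM, and Cd14, a receptor for bacterial lipopolysaccharide, at 19.2 and 15.1 TPM. Col10a1, the collagen of hypertrophic cartilage, was at 9.71 and 10.5 TPM, while Acan, aggrecan, had 0 counts. The defining markers of macrophages, of neurons (Rbfox3, Syn1 and Snap25) and of germ cells (Ddx4 and Dazl) were all under 1 TPM, and Sox2 was the only 1 of 3 defining pluripotency markers above it.

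**Figure D4:**
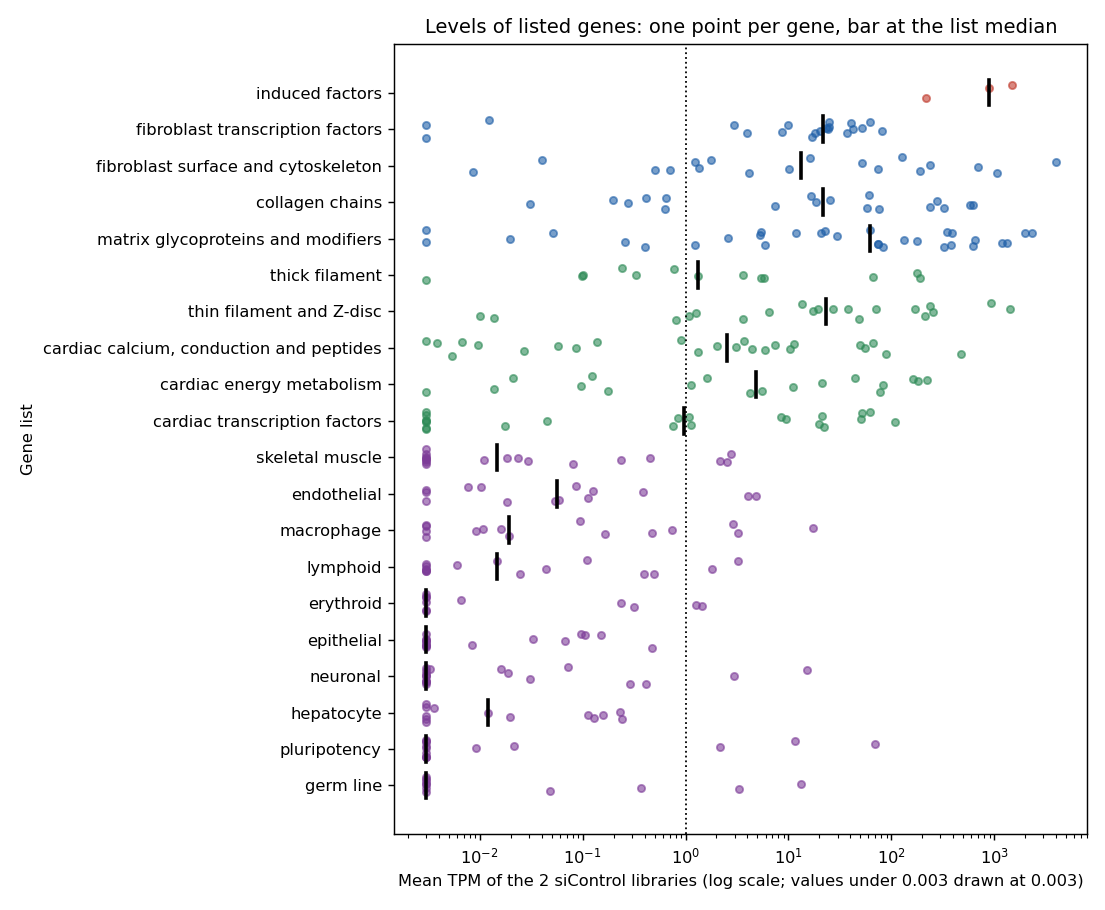
Mean TPM of the 2 siControl libraries (x axis, log scale, values under 0.003 drawn at 0.003) for members of 20 gene lists (rows), 1 point per gene, with a bar at the list median and a dotted line at 1 TPM. Fibroblast lists have medians from 13.2 to 61.4 TPM, cardiac lists straddle the line, and the other lineage lists lie to its left apart from isolated points.

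The cells expressed cell cycle genes and their inhibitors side by side. All 14 proliferation genes reached 1 TPM, with a median of 271 TPM, led by Pcna, the sliding clamp of DNA replication, at 1268 and 1275 TPM. Mki67, a marker of cycling cells, was at 45.7 and 61.8 TPM. Cdkn2a, which encodes the tumour suppressors p16 and p19ARF, was at 751 and 699 TPM, the highest of 10 cell cycle brakes. Cdkn1a, the p21 inhibitor, was at 417 and 405 TPM and Trp53 at 399 and 396 TPM. Cdkn1c had 0 counts.

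The 2 genes targeted elsewhere in the series were present at different levels. H1f0 (chromosome 15, 79028212 to 79030504), the linker histone that replaces others in cells leaving the cycle, was at 912 and 879.8 TPM and rank 107. The next linker histones were H1fx at 153 and 132 TPM and Hist1h1c at 142 and 135 TPM. H1f0 thus held most of the linker histone TPM in these poly(A) libraries. Transcripts of replication-dependent linker histones such as Hist1h1c largely lack poly(A) tails, so their TPM is not a measure of their full output. Junb (chromosome 8, 84976909 to 84978748), an AP-1 subunit, was at 55.5 and 52.6 TPM and rank 4336. Among 13 AP-1 family genes, 10 reached 1 TPM. Jund was the highest at 196 and 175 TPM, Jun was at 44.6 and 48.1 TPM, Fos was at 9.25 and 9.58 TPM, and Fosl1, an AP-1 subunit of growing fibroblasts, was at 0.529 and 0.555 TPM.

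The control libraries differed from each other in a way that followed gene length. Over 9262 genes of at least 10 mean TPM, the log2 ratio of siControl 2 over siControl 1, with 0.5 TPM added to each, had a median of 0.04 and an SD across genes of 0.187. Its median was -0.11 for genes of 500 to 1000 bases, -0.06 for 1000 to 2000, 0.03 for 2000 to 4000, 0.17 for 4000 to 8000 and 0.32 for longer genes. The share of genes higher in siControl 2 went from 24.1% at 1000 to 2000 bases to 97.7% above 8000 bases. A rank correlation between ratio and length over these genes was 0.707, given as a description because all points share the same 2 libraries. Long genes were thus higher in siControl 2 and short genes in siControl 1, and the cause was not tested.

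The induced factors differed between the libraries by more than genes of their length. Mef2c had a log2 ratio of 1.05, and 3 of 2502 genes of 4000 to 8000 bases had a higher one. For Gata4 the ratio was 0.79, with 15 of 3656 genes of 2000 to 4000 bases above it, and for Tbx5 it was 0.51, with 52 of the same 3656 above it. Each factor was higher in siControl 2, by 2.08-fold, 1.73-fold and 1.43-fold in that order. Among the 9262 genes of at least 10 mean TPM, 102 (1.10%) were at least 1.5-fold higher in siControl 2, Mef2c and Gata4 among them, and 21 (0.227%) in siControl 1. This is a comparison of 1 library with 1 library, so it has no replicate check.

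The cardiac lists differed in direction between the libraries. Over 61 cardiac list members of at least 1 mean TPM the median log2 ratio was 0.04, beside 0.04 over all 11989 genes at that level. Of the 61, 36 were higher in siControl 2, beside 7251 of the 11989, which is the background for the counts below. With TMM scaling those medians were -0.02 and -0.01 (the latter over genes of at least 10 mean TPM), so their sign depends on the scaling. Among calcium, conduction and peptide genes 11 of 14 were higher in siControl 2, with a median ratio of 0.14, and among cardiac transcription factors 9 of 11, with a median of 0.10. Among energy metabolism genes 7 of 12 were higher in siControl 2, with a median of 0.03. That median is smaller than the shift made by TMM scaling. Among sarcomere genes 9 of 24 were higher in siControl 2, with a median ratio of -0.05. Myh6 had a ratio of -0.17, Tnnt2 -0.11, Actc1 -0.12 and Myl7 -0.21. Most sarcomere genes were thus higher in siControl 1. Most genes of the calcium and transcription factor lists were higher in siControl 2, as were most of the 11989 genes. Lengths differed too, with a median of 1967 bases over all 33 sarcomere genes, 3489 bases over all 24 calcium, conduction and peptide genes and 3332 bases over all 22 transcription factors. Among genes of at least 10 mean TPM, 24.1% were higher in siControl 2 at 1000 to 2000 bases. At 2000 to 4000 bases that share was 62.5%. The part of length in these differences was not tested. Fibroblast list members had a median ratio of 0.08 at a median length of 3801 bases over all 87 members. Of 68 at that level 0 differed by 1.5-fold, but such genes were few among the 11989. There, 206 were at least 1.5-fold higher in siControl 2 and 139 in siControl 1.

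Several abundant RNAs outside the poly(A) class were higher in siControl 1, unlike the induced factors. Of 7 members of the noncoding list with at least 1 mean TPM, 2 were higher in siControl 2. Short RNAs were among the largest differences in both directions, such as Snord47 at 36.1 and 14.6 TPM and Mir3113 at 17.8 and 53.6 TPM. Rn45s, the ribosomal RNA precursor, was at 8413 and 2923 TPM, or 1.90% and 0.627% of counts. Rmrp, the RNA of a ribonucleoprotein that processes ribosomal and mitochondrial RNA, was at 248 and 65.6 TPM, and Rpph1, the RNA of ribonuclease P, at 127 and 32.9 TPM. Among genes with a protein, the largest excess in siControl 1 was that of H2-Q1, at 19.03 and 6.69 TPM. It is a class I histocompatibility gene with close paralogs and hence an uncertain count. Next came Lars2, annotated as the mitochondrial leucyl-tRNA synthetase, at 869 and 446 TPM. Whether reads of ribosomal RNA enter the Lars2 count was not tested. The largest excess in siControl 2 was that of Cbl, a ubiquitin ligase, at 12.6 and 29.4 TPM, then Lmbrd2 at 16.5 and 36.4 TPM and Hmbox1, a homeobox factor, at 34.1 and 74.2 TPM. Rn45s, Rmrp and Rpph1 were thus each higher in siControl 1, and the part of RNA selection in the differences between the libraries was not tested.

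**Figure D5:**
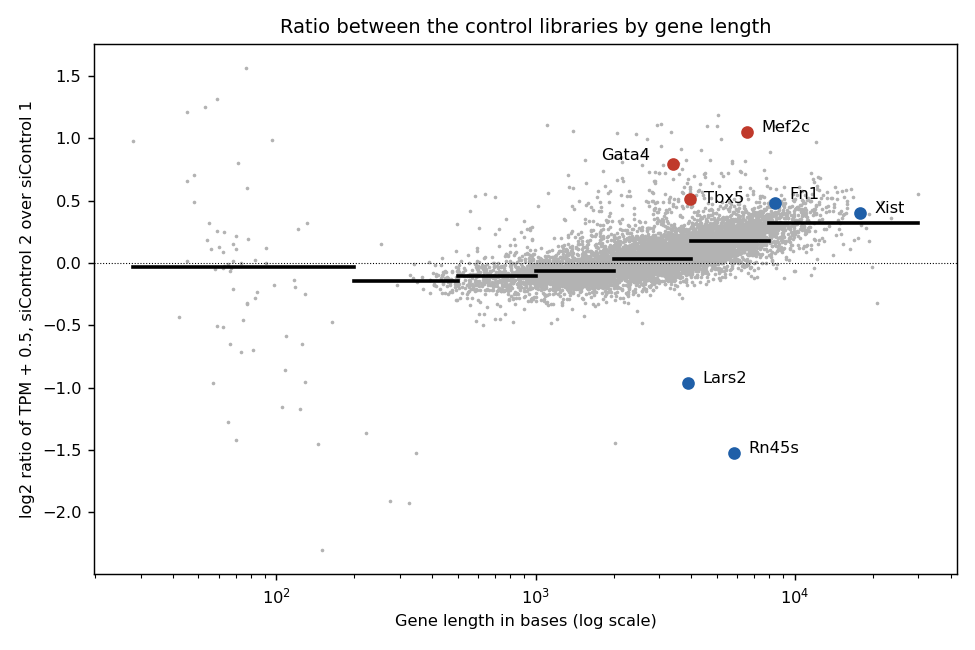
The log2 ratio of TPM plus 0.5 in siControl 2 over siControl 1 (y axis) against gene length in bases (x axis, log scale) for genes of at least 10 mean TPM, with black bars at the median of each length class. The bars climb from -0.11 at 500 to 1000 bases to 0.32 above 8000 bases, Mef2c, Gata4 and Tbx5 (red) lie above their classes, and Lars2 and Rn45s (blue) lie far below.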

How the data were processed

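Poly(A) RNA was sequenced, and the authors deposited raw counts per gene symbol for each library with a gene length column. Per the submitters' processing notes, HISAT2, Subread, featureCounts and mm10 were used. Versions, annotation, strand setting and the handling of multiply matching reads were not given in the sources used here. Genes with near-identical copies are therefore uncertain: Rpl26 had 1 and 0 counts beside a ribosomal protein median of 856 TPM. Counts of 1 to 4 were even in 64.6% and 63.7% of cases, and whether such low counts are independent molecules was not tested.

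The 2 siControl columns were used and 4 columns of the other groups were not. TPM was computed from the deposited counts and lengths in Python with pandas 2.3.3, and the computation was tested on simulated data. A gene was counted as expressed at 1 TPM or more in both libraries. A level for 0 counts is given as that of 3 counts, which covers counting error only and takes counts as independent. Of 24516 symbols, 23591 were found in the GRCm38.p6 gene table. Library ratios used a pseudocount of 0.5 TPM, with edgeR 4.0.16 (TMM) and DESeq2 1.42.0 size factors as alternatives.

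The condition, the 38 gene lists and the rules were chosen with earlier results of these data known. The rule named Mef2c, Gata4, Tbx5, Myh6, Junb and H1f0, the 20 highest protein-coding genes outside ribosomal proteins, the 5 highest members and the defining or 0-count members of each list, and the 6 most different genes per direction between libraries. Members outside it, such as Tcf21, Osr1, Tbx18, Runx2, Jph2, Kcnj2, Cacna1c, Cox7a1, Cd34, Myocd, Nebl, Jun, Fos, Mki67, Postn, Dcn, Col6a3, Gata6, Tnni1, Myl2, Actn2, Slc8a1, Ckm and Fosl1, were chosen after their values were seen. Results of lists not described elsewhere are in the closing section.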

Additional observations from a re-analysis of the deposited data

How the results depend on the processing

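No paired analysis was possible because the description covers 1 group and makes no test between groups. Leaving Rn45s and genes under 200 bases out of the TPM denominator, a threshold of 0.5 or 5 TPM, and at least 10 counts in place of TPM kept the number of expressed genes between 10191 and 13148, the fibroblast members between 59 and 77 and the cardiac members between 46 and 70. Other-lineage members numbered 27 at 1 TPM, 7 at 5 TPM and 45 at 10 counts, so that count depends on the threshold. With siControl 1 or siControl 2 left out, expressed genes were 11979 to 11988, fibroblast members 68, cardiac members 59 to 60 and other-lineage members 27 to 28. The fibroblast median of 23.0 TPM became 52.1 TPM over members at 1 TPM or more in either library and 35.4 as CPM (counts scaled by library total, without length). The cardiac median of 3.73 TPM became 20.7 TPM over such members, 3.77 as CPM, 3.77 TPM with the reduced denominator, and 3.85 to 3.87 TPM with either library left out. The cardiac median ratio between libraries was 0.04 on the log2 scale, 0.02 with no filter, -0.02 with TMM and -0.01 with DESeq2 size factors, so its sign depends on the scaling; the median of all genes moved with it, from 0.04 to -0.01 with both. With the coding length the means were 3793 TPM for Tbx5, 2275 TPM for Gata4 and 981 TPM for Mef2c, a length chosen after seeing the data in place of the planned protein table, which was not used here. Depth limits statements only for genes near 3 counts.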

Other observations

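Glycolysis was expressed throughout, with 15 of 15 members at 1 TPM or more and a median of 118 TPM. Pkm, pyruvate kinase, was at 1386 and 1342 TPM and Aldoa, aldolase, at 703 and 677 TPM. Gapdh, a glycolytic enzyme often used as a reference, was at only 77.5 and 77.9 TPM, and Eno1, the general enolase, at 4.98 and 5.70 TPM. A gene listed as Eno1b was at 59.5 and 55.4 TPM. Both Gapdh and Eno1 have near-identical copies in the genome, so these levels are uncertain. The 17 housekeeping genes had a median of 1450.4 TPM.

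Xist, the noncoding RNA that coats the inactive X chromosome, was at 354 and 467 TPM, rank 359. The Y-linked genes Ddx3y, Kdm5d, Eif2s3y and Uty, looked up after that value was seen, had 0 counts in both libraries. Malat1, a nuclear noncoding RNA, was at 569 and 642 TPM, Neat1, the scaffold RNA of paraspeckles, at 13.4 and 10.6 TPM and Mir6236 at 1260.0 and 560.4 TPM, while the imprinted RNA Meg3 had 0 counts and H19 had 0 and 2 counts.

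The remaining lists, by members at 1 TPM or more in both libraries, were 1 of 8 for adipocyte genes, 2 of 11 for cartilage and bone, 2 of 14 for endothelium, 3 of 15 for macrophages, 2 of 15 for lymphoid cells, 2 of 11 for erythroid cells, 2 of 18 for neurons and 1 of 9 for glia. They were 1 of 9 for pancreas, 0 of 5 for lung epithelium, 0 of 7 for photoreceptors, 3 of 6 for mesothelium and epicardium, 3 of 14 for pluripotency and 2 of 11 for germ line. Contractile genes of fibroblasts and smooth muscle had 16 of 20, cell cycle brakes 9 of 10, linker histones 7 of 10 and the noncoding list 7 of 9.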
